A study of Rattus norvegicus with 25 samples.

Results

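The hippocampus of rats was examined for 6 genes of the corticosteroid response after the forced swim test (FST), namely the 2 receptor genes Nr3c1 (ENSRNOG00000014096) and Nr3c2 (ENSRNOG00000034007) and the glucocorticoid target genes Fkbp5 (ENSRNOG00000022523), Sgk1 (ENSRNOG00000011815), Per1 (ENSRNOG00000007387) and Cdkn1a (ENSRNOG00000000521). They are 6 of the 32623 genes in the tables and were chosen by identifier for their known role. Earlier results of these data were known when they were chosen. The tables give no gene names, and the names of the 6 were taken from the list of identifiers that defined the set, which no other table at hand could check. All 6 had reads in every library and passed the low-count filter that left 13908 genes for testing.

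Corticosterone, the main glucocorticoid of the rat, reaches the hippocampus through the blood after stress and binds a pair of receptors that act as transcription factors. The mineralocorticoid receptor, encoded by Nr3c2, has the higher affinity and is largely occupied at resting hormone levels, whereas the glucocorticoid receptor, encoded by Nr3c1, is filled as the hormone rises. The hippocampus is known for carrying both. Fkbp5 encodes a co-chaperone that lowers the affinity of the glucocorticoid receptor for its hormone and is itself induced by it. Sgk1 encodes a kinase of ion transport, Per1 a repressor of the circadian clock, and Cdkn1a the cell cycle inhibitor p21.

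The animals were male Sprague Dawley rats, 19 in all, and each value comes from a piece of hippocampus of a single rat. In both FST groups a rat swam for 15 min on the day before and for 5 min on the test day. The 20-m group (7 rats) was decapitated 20 min after the test and the 24-h group (6 rats) 24 h after it, and the control rats (6) did not undergo the FST. By the labels' batch numbers, 3 rats per group were in Batch 1, and 3 rats per FST group but 1 control in Batch 2. For 1 rat of the 20-m group and 2 controls the labels give 3 repeats each, as Batches 3 to 5. At which step the batches or repeats arose was not established, and repeats are called runs here. The labels place 7 rats in the 20-m group where one passage of the study has 6, and all 7 were used. Rats are numbered here by the labels, and the study's supplementary tables number some rats differently and place some numbers in another group. Whole tissue was sequenced, so fewer cells of a type and less RNA per cell cannot be told apart, and cell type markers of the tissue were not checked because the tables do not pair identifiers with names.

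Counts summed per rat came to 6217600 to 9032924 reads. The receptor genes, Fkbp5, Sgk1 and Per1 had 303 to 792 reads per rat, and Cdkn1a had 16 to 47, so that its values carry a larger counting error. In the 3 rats with repeat runs, the counts of a gene differed between runs beyond counting error in 0 of 18 gene and rat combinations (chi-square test at 0.05).

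Per length, measured in TPM, Nr3c2 was listed highest in control rats at 36.1 ± 6.0 (SD, n = 6), followed by Sgk1 at 33.1 ± 2.7, Fkbp5 at 26.0 ± 2.8, Nr3c1 at 20.0 ± 2.4, Per1 at 19.5 ± 2.4 and Cdkn1a at 3.3 ± 1.2. The ranges over control rats overlapped between Nr3c2 (27.6 to 45.9) and Sgk1 (28.6 to 36.9), between Sgk1 and Fkbp5 (23.3 to 29.4), and between Nr3c1 (16.9 to 22.5) and Per1 (16.0 to 22.8). They did not overlap between Fkbp5 and Nr3c1, or between Per1 and Cdkn1a (1.76 to 4.81). TPM values depend on the annotated transcript, which was 5078 bases long for Nr3c1 and 2631 for Nr3c2, and whether these models are complete was not tested.

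Nr3c2 TPM exceeded Nr3c1 TPM in 18 of 19 rats. The ratio of Nr3c2 to Nr3c1 was 1.82 ± 0.25 in control rats (n = 6), 1.78 ± 0.33 in the 20-m group (n = 7) and 1.73 ± 0.52 in the 24-h group (n = 6). The group means lay within 1 SD of each other, and the spread was widest at 24 h, where the ratio ran from 0.902 in rat 13 to 2.39 in rat 19.

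**Figure D1:**
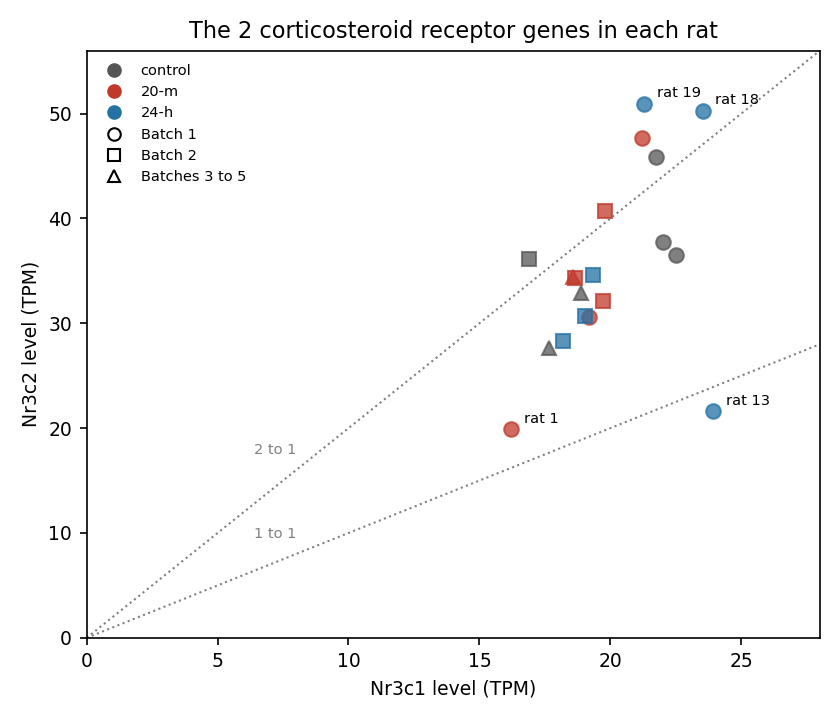
TPM of Nr3c2 (vertical axis) against TPM of Nr3c1 (horizontal axis), 1 point per rat, coloured by group and shaped by batch, with dotted lines at equal levels and at 2 to 1. Most rats lie between the lines, and rat 13 of the 24-h group is the 1 point below the line of equal levels.

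To compare groups, counts were expressed as CPM (reads scaled to a common library size, with TMM factors). The quasi-likelihood test of edgeR was used, with a term for batch. A DEG had an adjusted p below 0.05 over all genes tested and a fold change above 1.5. None of the 6 genes was a DEG in any of the 3 comparisons. The shares of all genes called were 0.0431% for 20 min against control, 0% for 24 h against control and 0.036% for 20 min against 24 h, so that no call among 6 genes is also what the background share would give. At an unadjusted p below 0.05, 1 of the 6 genes was found in each comparison, namely Sgk1, Per1 and again Sgk1, beside 7.55%, 3.17% and 13.8% of all genes tested, so that a count of 1 in 6 says little of the set.

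**Figure D2:**
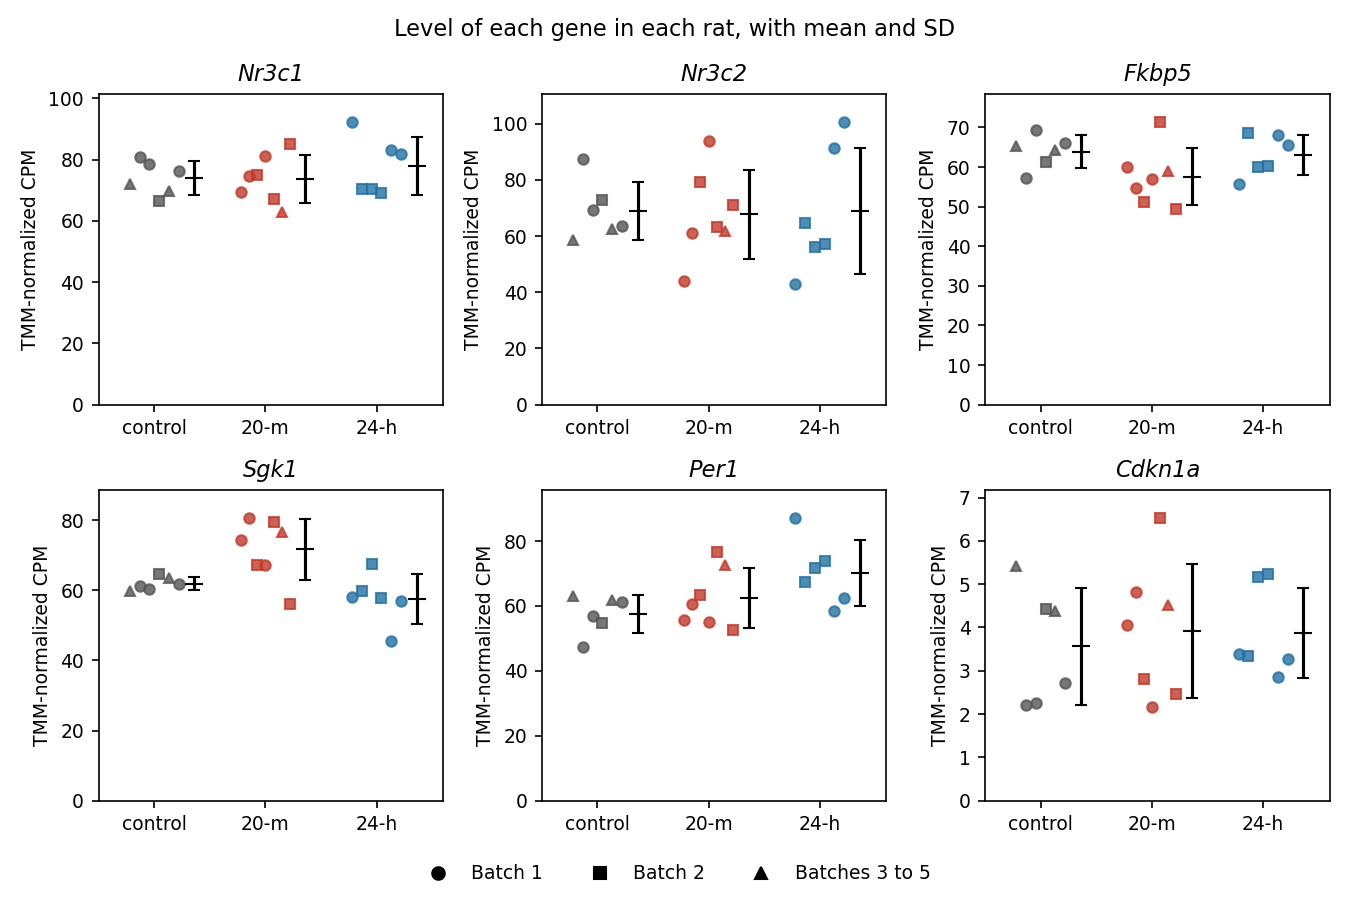
TMM-normalized CPM (vertical axes, from 0) of each gene in each of 19 rats, by group, with the shape giving the batch and the black mark and bar the group mean and SD. For Sgk1, 6 of 7 rats of the 20-m group lie above every control in CPM, but fewer do so in TPM. For Per1, 4 of 6 rats of the 24-h group lie above every control, while the groups overlap for all 6 genes.

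Nr3c1, the glucocorticoid receptor gene, ran in control rats from 66.4 to 80.8 CPM (median 74.1), in the 20-m group from 62.9 to 85.1 (median 74.7) and in the 24-h group from 69.1 to 92.4 (median 76.2). The groups overlapped throughout. At 20 min the log2 fold change against control was -0.0025 (SE 0.074, 95% confidence interval -0.16 to 0.15, adjusted p = 0.998), which bounds the change between 0.897-fold and 1.11-fold. At 24 h it was 0.056 (SE 0.080, interval -0.11 to 0.22, adjusted p = 1.0), and between the FST groups it was -0.058 (SE 0.071, interval -0.21 to 0.091, adjusted p = 0.745). A shift in Nr3c1 of the size that defines a DEG thus lies outside all 3 intervals.

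Nr3c2, the mineralocorticoid receptor gene, varied far more between rats than Nr3c1. Control rats ran from 58.7 to 87.5 CPM (median 66.3), the 20-m group from 43.9 to 94.0 (median 63.4) and the 24-h group from 42.8 to 101 (median 61.0). Both extremes of each FST group came from Batch 1, and outside that batch the 10 rats lay between 56.2 and 79.2 CPM. The log2 fold change was -0.040 at 20 min (SE 0.19, interval -0.43 to 0.35, adjusted p = 0.977) and -0.056 at 24 h (SE 0.20, interval -0.47 to 0.36, adjusted p = 1.0). Between the FST groups it was 0.016 (SE 0.18, interval -0.36 to 0.40, adjusted p = 0.976). These intervals allow changes of up to 1.32-fold upward and down to 0.72-fold, so that the data bound Nr3c2 less tightly than Nr3c1.

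After group and batch were removed, the SD of log2 CPM over rats was 0.37 for Nr3c2, which is 5.47 times the SD expected from counting alone and larger than in 83.0% of the genes tested. For Nr3c1 it was 0.12, or 1.92 times the counting SD and larger than in 13% of genes. These shares take no account of read number, so genes with few reads can rank high from counting error. Cdkn1a, at 1.42 times its counting SD, exceeded 87.4% of genes. Rats 13 and 1 were the farthest from their expected Nr3c2 level, both at -0.65 on the log2 scale. Rat 13 had the highest Nr3c1 and Per1 values of all 19 rats beside the lowest Nr3c2 value.

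At 20 min after the FST, the fitted level was above control for 3 of the 4 target genes (Sgk1, Per1 and Cdkn1a), none past the adjusted threshold, and of these Sgk1 had an unadjusted p below 0.05. Control rats lay in a narrow range, at 59.7, 61.2, 60.4, 64.5, 63.5 and 61.8 CPM for rats 21, 22, 24, 25, 27 and 28. In the 20-m group the values were 74.2, 80.6, 67.1, 67.3, 79.5, 76.5 and 56.1 CPM for rats 1, 2, 5, 6, 7, 10 and 12. In all, 6 of these 7 rats exceeded every control, and rat 12 was below every control. In the 24-h group the values were 57.9, 59.8, 67.4, 57.7, 45.4 and 56.8 CPM for rats 13, 14, 15, 17, 18 and 19. Rat 15 exceeded every control and 4 of the 6 rats were below every control. In TPM the separation was weaker. Control rats ran from 28.6 to 36.9, and of the 20-m group only rats 2, 7 and 10 exceeded them (41.6, 44.6 and 45.0). Rats 1, 5 and 6 lay within the control range (35.0, 34.7 and 34.8) and rat 12 below it (26.4). At 24 h, rat 18 was below the range (25.5) and the other rats lay within it.

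Against control, the log2 fold change of Sgk1 at 20 min was 0.21 (SE 0.090, interval 0.025 to 0.40), a 1.16-fold difference, with an adjusted p of 0.635 by edgeR's quasi-likelihood test (unadjusted p = 0.0284). An exact two-sided permutation test of mean log2 CPM gave p = 0.0297 over all rats and p = 0.0417 with rats exchanged only within batches, unadjusted for the 18 such tests on the 6 genes. The background share of genes higher at an unadjusted p below 0.05 was 3.91% in this comparison and that of lower genes 3.64%. Batch 1 alone gave a difference in mean log2 CPM of 0.27, Batch 2, with its 1 control, of 0.052, and Batches 3 to 5 of 0.31. Without rat 12 the log2 fold change was 0.25 (adjusted p = 0.361), and with Batches 1 and 2 alone it was 0.18 (unadjusted p = 0.106).

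The largest difference of Sgk1 was between the FST groups, where the mean was 71.6 ± 8.7 CPM at 20 min (n = 7) and 57.5 ± 7.1 at 24 h (n = 6). The log2 fold change was 0.31 (SE 0.089, interval 0.13 to 0.50, 1.24-fold) and the adjusted p 0.194 (unadjusted p = 0.0022), which placed Sgk1 at rank 156 of 13908 genes. The exact permutation p was 0.0140 over all rats and 0.025 within batches. Genes higher at an unadjusted p below 0.05 made up 7.2% of all genes here and lower genes 6.64%. The difference was 0.47 in Batch 1 and 0.12 in Batch 2. After ComBat and limma, the adjusted p was 0.040 at a 1.26-fold change, below the fold threshold. Against control, the 24-h group had a log2 fold change of -0.10 for Sgk1 (SE 0.098, interval -0.31 to 0.10, adjusted p = 1.0), which was -0.023 without rat 18.

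Per1 stood highest 24 h after the FST. Control rats 21, 22, 24, 25, 27 and 28 had 63.1, 47.4, 57.0, 54.7, 61.9 and 61.2 CPM. The 24-h rats 13, 14, 15, 17, 18 and 19 had 87.2, 67.3, 71.7, 73.9, 58.3 and 62.5 CPM, and 4 of these 6 exceeded every control. The 20-m rats 1, 2, 5, 6, 7, 10 and 12 had 55.5, 60.6, 63.5, 54.9, 76.6, 72.6 and 52.6 CPM. In that group 3 of 7 rats exceeded every control and none was below all of them.

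For 24 h against control, the log2 fold change of Per1 was 0.34 (SE 0.11, interval 0.11 to 0.57, 1.27-fold). By edgeR's quasi-likelihood test Per1 ranked 17th of 13908 genes (unadjusted p = 0.0054), but the adjusted p was 1.0, as it was for each of the 6 genes in this comparison. The exact two-sided permutation p was 0.0173 over all rats and 0.025 within batches, where 80 arrangements make 0.0125 the smallest possible p. Genes higher at an unadjusted p below 0.05 made up 1.84% of all genes and lower genes 1.33%. Batch 1 gave a difference of 0.31 and Batch 2, with its 1 control, of 0.37, and no 24-h rat was in Batches 3 to 5. Without rat 13 the log2 fold change was 0.24 (unadjusted p = 0.0255). At 20 min against control it was 0.14 (SE 0.10, interval -0.071 to 0.35, adjusted p = 0.812), and for 20 min against 24 h it was -0.20 (SE 0.098, interval -0.41 to 0.0015, adjusted p = 0.365). This last value was -0.11 without rat 13 and -0.27 without rat 7 (unadjusted p = 0.0096, adjusted p = 0.190), and 8 of its 27 alternatives had an unadjusted p below 0.05.

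Fkbp5 was listed lower at 20 min than in the other groups, with an interval that includes 0. Controls 21, 22, 24, 25, 27 and 28 had 65.4, 57.3, 69.3, 61.2, 64.3 and 66.1 CPM. The 20-m rats 1, 2, 5, 6, 7, 10 and 12 had 60.0, 54.6, 51.1, 57.1, 71.4, 59.1 and 49.5 CPM. Of these 7, 4 were below every control, and rat 7 had the highest value of all rats. The log2 fold change was -0.14 (SE 0.084, interval -0.32 to 0.035, adjusted p = 0.771), with an exact permutation p of 0.0769 over all rats and 0.0833 within batches. The difference had the same sign in each batch (-0.16 for Batch 1, -0.11 for Batch 2, -0.13 for Batches 3 to 5). Batch 2 held 1 control and Batches 3 to 5 held 1 rat of the 20-m group, so these 2 signs each rest on 1 rat in 1 group. The 24-h group ran from 55.9 to 68.6 CPM (median 62.8), with a log2 fold change against control of -0.0052 (SE 0.091, interval -0.20 to 0.19, adjusted p = 1.0). For 20 min against 24 h it was -0.14 (SE 0.082, adjusted p = 0.469). Without rat 7 the value was -0.19 against control (unadjusted p = 0.0143, adjusted p = 0.568) and -0.21 against the 24-h group (unadjusted p = 0.0066, adjusted p = 0.181), and ComBat with limma gave -0.15 against control (unadjusted p = 0.0425, adjusted p = 0.364). These were the only alternatives for Fkbp5 with an unadjusted p below 0.05, at 2 of 27 against control and 1 of 27 against the 24-h group.

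Cdkn1a was the lowest of the 6 genes, and its control values differed by batch. Its values were 2.21 to 5.41 CPM in control rats (median 3.54), 2.17 to 6.53 in the 20-m group (median 4.06) and 2.85 to 5.23 in the 24-h group (median 3.36). The 3 controls of Batch 1 had 2.21, 2.27 and 2.71 CPM, whereas the other 3 controls had 4.38 to 5.41. The log2 fold change was 0.22 at 20 min (SE 0.24, interval -0.29 to 0.74, adjusted p = 0.891), 0.26 at 24 h (SE 0.27, interval -0.30 to 0.82, adjusted p = 1.0) and -0.033 between the FST groups (SE 0.24, interval -0.53 to 0.46, adjusted p = 0.962). Within batches the difference at 20 min changed sign, from 0.51 for Batch 1 to -0.28 for Batch 2 and -0.10 for Batches 3 to 5. Both intervals against control contain a 1.5-fold increase of Cdkn1a and exclude a 1.5-fold decrease. With single rats left out, the value at 20 min ran from 0.084 (without rat 2) to 0.34 (without rat 10).

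**Figure D3:**
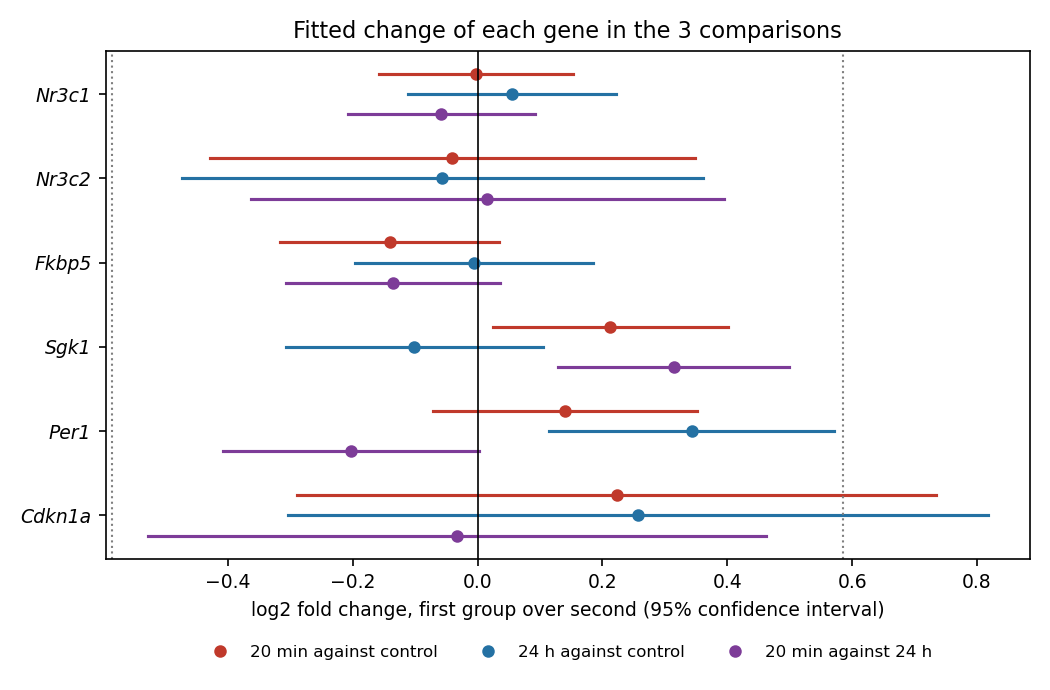
Fitted log2 fold change (horizontal axis, points) with its 95% confidence interval (lines) for the 6 genes in the 3 comparisons, with dotted lines at 1.5-fold either way. The intervals of Sgk1 for 20 min against control and against 24 h and of Per1 for 24 h against control exclude 0, and those of Cdkn1a against control are the ones that reach past a 1.5-fold increase.

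As a group, the 6 genes did not move one way. Their median log2 fold change was 0.069 at 20 min against control, 0.025 at 24 h against control and -0.046 for 20 min against 24 h, with 3, 3 and 2 of 6 genes higher, beside medians of -0.0014, -0.0014 and -0.0016 over all genes. The groups overlapped in CPM for each of the 6 genes in each comparison. Over all genes, groups without overlap were found for 0.259% at 20 min against control, 0.122% at 24 h against control and 0.424% at 20 min against 24 h. The comparisons at 20 min and at 24 h share the control rats.

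Other genes of glucocorticoid action could be followed only where an identifier was paired with a name. Of 26 further glucocorticoid-induced genes listed, this held for Dusp1 (ENSRNOG00000003977), a phosphatase that turns off MAP kinases and that is also an immediate early gene. Dusp1 CPM was 9.23 ± 3.1 in control rats (n = 6), 28.9 ± 4.4 in the 20-m group (n = 7) and 9.91 ± 1.7 in the 24-h group (n = 6). It was a DEG at 20 min, with a log2 fold change of 1.69 against control (SE 0.18, adjusted p = 7.9e-05) and of 1.51 against the 24-h group (SE 0.18, adjusted p = 0.00028), and its 7 rats of the 20-m group exceeded all others. Of 12 targets of p53 beside Cdkn1a, only Btg2 (ENSRNOG00000003300), an antiproliferative gene, could be followed. Its log2 fold change was 0.76 at 20 min against control (SE 0.15, adjusted p = 0.085) and 0.89 against the 24-h group (SE 0.15, adjusted p = 0.024). Both genes were already among the named results of this series and were not picked independently of their values.

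Relations of the 6 genes between rats were also described. Over 15 pairs, Pearson's r between residual log2 CPM values (group and batch taken out) ran from -0.67 to 0.67 in 19 rats, and these correlations are given as a description because all 6 values of a rat share 1 library. The r of pairs of other genes was not computed, so whether these 15 pairs differ from other pairs was not tested. Nr3c1 ran opposite to Sgk1 (r = -0.67, Spearman's rho = -0.70), to Cdkn1a (r = -0.59, rho = -0.62) and to Fkbp5 (r = -0.54, rho = -0.43). Without the 2 rats farthest from the median of Nr3c1 (rats 12 and 13), r was -0.60 with Sgk1, -0.56 with Cdkn1a and -0.28 with Fkbp5. Nr3c2 ran opposite to Per1 (r = -0.57, rho = -0.64), and r was -0.60 without rats 1 and 13. Sgk1 and Cdkn1a ran together (r = 0.67, rho = 0.69, and r = 0.65 without rats 12 and 18). Other pairs of target genes held less well. For Sgk1 and Per1, r was 0.52 and fell to 0.21 without rats 12 and 18. Fkbp5 had r = 0.23 with Sgk1, 0.21 with Per1 and 0.36 with Cdkn1a. Without rats 7 and 12 these turned to -0.23, -0.34 and -0.10. The 2 receptor genes had r = 0.21 (rho = 0.31), which was 0.66 without rats 12 and 13.

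Rat 12 of the 20-m group stood at the edge of it for most of the 6 genes. It had the highest Nr3c1 of its group, at 85.1 CPM, and the lowest Sgk1, Per1 and Fkbp5, at 56.1, 52.6 and 49.5 CPM. Its Cdkn1a, at 2.47 CPM, was the second lowest of the group. Its edge position was not particular to the 6 genes. Rat 12 was also lowest of its group for Klf2 (6.63 CPM), Ccn1 (4.32), Zfp36 (6.32) and Fos (9.87). It was highest for Atf3 (3.08) and lay in between for the other named genes. This rat was singled out after its values were seen.

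**Figure D4:**
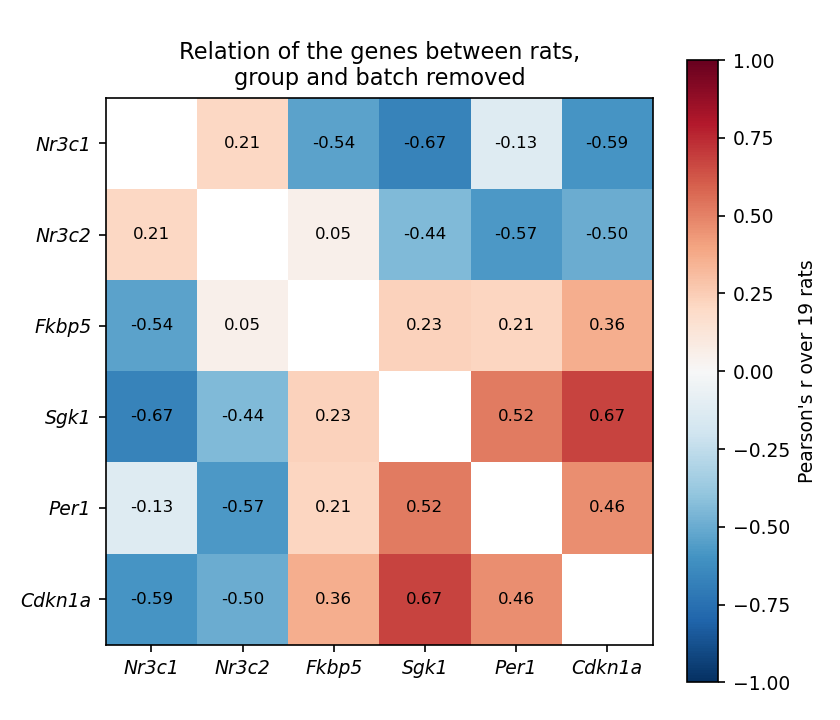
Pearson's r between the 6 genes over 19 rats, from log2 CPM after group and batch were removed, with blue for negative and red for positive values. Nr3c1 and Nr3c2 are negative against Sgk1, Per1 and Cdkn1a, and those 3 target genes are positive with one another.

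With group differences kept and batch removed, the genes most like each of the 6 were sought among the 15 other genes with a name. Sgk1 was most like Klf2 (r = 0.76), a transcription factor of endothelial cells among others, Ccn1 (r = 0.71), a matrix protein gene, and Zfp36 (r = 0.71), a factor in mRNA decay. At 20 min against control, Ccn1 and Zfp36 were DEGs, with log2 fold changes of 3.38 (adjusted p = 7.9e-05) and 1.12 (adjusted p = 0.0015), and Klf2 had 1.08 (adjusted p = 0.085). Per1 was most like Cdkn1a (r = 0.52) and Sik1 (r = 0.43), a kinase gene. For Nr3c1, Nr3c2 and Fkbp5 the highest r was 0.29. The 10 named genes outside the set are ones the study listed for their change at 20 min. A high r with them can thus come from a level that is higher at 20 min. It can also come from differences between rats of 1 group. In the 20-m group, rat 12 was lowest and rat 2 highest for Sgk1 (56.1 and 80.6 CPM), Klf2 (6.63 and 18.8) and Ccn1 (4.32 and 14.45). Zfp36 was also lowest in rat 12 (6.32) but highest in rat 10 (10.8). The share of r due to groups was not tested. Other genes of the tables may be closer.

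The window from 250 bases before to 50 bases after the transcript start, from RefSeq on GRCr8, was at hand for 5 of the 6 genes (8 windows, none for Nr3c2). The glucocorticoid response element core ACANNNTGT, searched on both strands, stood in 6.86% of all 33469 windows and in 0 of the 8. The receptor's hexamer TGTTCT, whose first bases overlap the end of that core, stood in 20.7% of all windows, the E-box CACGTG in 6.42% and the cyclic AMP response element TGACGTCA in 1.83%, each in 0 of the 8. These windows cover the start alone and no farther element.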

How the data were processed

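Poly-A RNA of hippocampus was sequenced on a HiSeq, as 25 samples of 19 rats. The authors trimmed reads with AdapterRemoval, aligned them with STAR to the Rnor 6.0 transcriptome and deposited RSEM's expected counts, not normalized, for 32623 genes. Which versions of STAR and RSEM were run is not given in the sources used here. TPM values, which the authors deposited from RSEM as well, served to order levels between genes and as an alternative. For their own tests the authors used TMM, voom, ComBat and limma.

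Groups and batches were taken from the labels. Runs of rats 10, 21 and 27 in Batches 3 to 5 were summed, and each rat counted once (per gene, chi-square averaged 1.22 to 1.45 for pairs of runs from 1 rat and 2.99 to 51.4 for pairs of rats from 1 group). Runs of a rat are thus paired by animal. A single run of these rats holds fewer reads than a whole rat, and pairs of rats can come from different batches. The chi-square ranges are therefore not like for like. Expected counts were rounded to whole numbers and filtered with edgeR's filterByExpr (minimum count 10, minimum total 15). Groups were compared by the quasi-likelihood test of edgeR, with TMM and terms for group and for batch in 3 levels, over all 19 rats (14 residual degrees of freedom), with Benjamini-Hochberg adjustment over 13908 genes. Standard errors are the log2 fold change over the square root of F. Log2 CPM used a prior count of 2. Exact permutation tests on single genes enumerated all arrangements of rats. Within batches these numbered 240 for 20 min against control, 80 for 24 h against control and 400 for 20 min against 24 h. The smallest possible p within batches was thus 0.0042, 0.0125 and 0.0025. R 4.3.3, edgeR 4.0.16, limma 3.58.1, DESeq2 1.42.0, sva 3.50.0, Python 3.11.15 and scipy 1.17.1 were used.

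All 6 genes are described whatever their values. The genes, the lists of related genes and the tests were chosen with earlier results of these data known. Alternatives were other scalings, filters, tools, batch terms and subsets of batches, single runs, a block over runs, TPM with a pseudocount of 1 or 0.1, and each rat left out. Lists of cell type markers, of chaperones, of hormone metabolism, of coregulators and of clock genes were not analysed here, since no table at hand pairs their identifiers with names. Gene positions were not used here.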

Additional observations from a re-analysis of the deposited data

How the results depend on the processing

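None of the 6 genes was called under any alternative, in any comparison. Of the 18 log2 fold changes of the 6 genes, 12 kept their direction in every alternative and 6, all small, changed it in some. Nr3c1 at 20 min against control (-0.0025) turned to 0.0005 with median-ratio size factors, 0.0037 with no scaling, 0.0001 by DESeq2, 0.045 with Batches 1 and 2 alone and 0.0086 with first runs, and ran from -0.047 to 0.053 with single rats left out. Nr3c2 at 20 min ran from -0.13 to 0.068 with single rats left out. At 24 h against control, Nr3c2 was 0.098 in Batch 1 alone and -0.21 to 0.076 with single rats left out. Fkbp5 at 24 h was 0.0056 with no scaling and 0.0015 with the compared groups alone, and -0.043 to 0.038 with rats left out. For 20 min against 24 h, Nr3c2 was -0.022 without a batch term, -0.25 in Batch 1 alone, -0.022 from log2(TPM + 1) and -0.023 from log2(TPM + 0.1), and -0.10 to 0.15 with rats left out. Cdkn1a was 0.020 without a batch term, 0.21 in Batch 1 alone and 0.0055 in Batches 1 and 2 alone, and -0.21 to 0.082 with rats left out.

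Sgk1 at 20 min against control kept an unadjusted p below 0.05 in 11 of 14 settings and 10 of 13 fits with a rat left out, with p = 0.18 from log2(TPM + 1) in limma, and lost it without rat 1, 2 or 10. Per1 at 24 h and Sgk1 for 20 min against 24 h kept it in every setting and every such fit, with log2 fold changes of 0.24 to 0.40 and of 0.25 to 0.46.

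Over all genes, DEGs at 20 min against control numbered 6, or 10 without the low-count filter, 15 by DESeq2, 15 with ComBat, 0 in Batch 1 alone and 4 to 8 with a rat left out. For 20 min against 24 h they numbered 5, or 9 without the filter, 30 by DESeq2, 48 with ComBat, 0 in Batch 1 alone and 4 to 9 with a rat left out (9 without rat 2). At 24 h against control the count was 0 throughout, with 441 genes at an unadjusted p below 0.05 by edgeR, 351 by DESeq2 and 1041 with ComBat. With a replicate block, in which the 3 runs of a rat were paired by animal over 5 batches, the counts were 20, 0 and 18, and the block changed no call of the 6 genes. The causes of these shifts were not tested. The number of reads limits Cdkn1a in particular.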
